A study of Mus musculus with 6 samples.

Results

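The genes described here are the pattern recognition receptors of innate immunity, taken as every mouse gene with a Toll-like receptor symbol (Tlr followed by a number), a C-type lectin domain symbol (Clec followed by a number and a letter) or an Nlrp symbol, together with Nod1, Nod2, Nlrc4, Aim2, Pycard and Myd88. The symbols alone chose the members, and 72 of the 43274 genes in the expression table met the rule. Expression was measured by RNA-seq in bulge stem cells (SCs) of the hair follicle, sorted by FACS from mouse skin as CD34+ cells with high surface α6 integrin at postnatal day 21 (P21). Control mice carried the keratin 5-driven Cre transgene (K5-Cre) and 1 floxed allele of Ilk, the gene of the integrin adaptor integrin-linked kinase, and are labelled ILK +/-. ILK-K5 mice carried K5-Cre and floxed Ilk on both alleles and are labelled ILK -/-. Both groups shared the mixed C57Bl6-129/Sv background and the Cre, which the keratin 5 promoter drives in keratinocytes of the epidermis and hair follicle, so that the deletion was not directed at blood-derived cells. Each genotype had 3 libraries. Separate mice per library are not stated, so p-values measure the spread between these samples, which may in part be technical.

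Pattern recognition receptors bind conserved molecules of microbes or of damaged cells. Toll-like receptors sense lipids and proteins at the cell surface and nucleic acids in endosomes, and most of them signal through the adaptor Myd88. C-type lectin receptors of myeloid cells bind sugars and glycolipids and signal through the immunoreceptor chains Fcer1g and Tyrobp and the kinase Syk, or, for inhibitory members, through phosphatases. NOD-like receptors and Aim2 act in the cytosol, and several assemble with Pycard into inflammasomes that activate caspase-1. Skin keratinocytes are known to use some of these sensors, whereas macrophages, dendritic cells and neutrophils carry most of them.

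Between 8228019 and 11969072 reads per library fell on genes, and 1 read was worth 0.726 to 1.52 normalized counts, the unit used here unless another is named (reads divided by a size factor of the library). Ilk itself had 10.6, 16.7 and 38.5 in the controls, against 14.8, 30.9 and 29.2 in ILK-K5 (library order 1 to 3, here and throughout). This level by itself cannot check the genotype. Exons of Ilk overlap those of Taf10 and Rrp8 on the other strand, and the library kit keeps no strand. The share of reads from these neighbours was not tested. By immunofluorescence, the study reported efficient loss of ILK at P21. Of 10 keratinocyte and bulge SC markers 1 was lower in ILK-K5 and none higher; the lower gene was Cd34, a sorting marker, with 2009, 947 and 1960 in the controls and 296, 560 and 433 in ILK-K5 (log2 difference -1.90, standard error (SE) 0.37, limma adjusted p = 0.0239). Of the 13 macrophage markers, 12 could be tested and 11 were higher in ILK-K5 (the 12th, Mertk, stood at 726 ± 228 in control and 705 ± 124 in ILK-K5, mean ± SD). The summed level of the 13 markers was 809 to 1292 in the controls and 15290 to 22171 in ILK-K5, with Fcgr1 at 0 reads in every control library. Most of the control sum was Mertk, with 506, 961 and 710. Among the other lists, 2 of 4 tested neutrophil markers (S100a8 and S100a9; summed level 33.5 to 56.9 in control and 219 to 298 in ILK-K5) and 2 of 6 tested Langerhans and dendritic cell markers (Itgax and Epcam; 540 to 924 and 2520 to 2806) were higher. Epcam alone made up most of the latter sum, with 453, 476 and 813 in controls and 1124, 1806 and 1548 in ILK-K5. Cd207, Flt3, Zbtb46 and Xcr1 had higher means in ILK-K5 and were not called. Of the higher markers so far, Mrc1, C1qa, C1qb, C1qc, Fcgr1, S100a8 and S100a9 had a control mean under 10. They passed the test limit of 10 over the 6 libraries only because of their ILK-K5 level. Over all tested genes 2.93% were higher and 0.599% lower. Of the other neutrophil markers, Ly6g, Mpo, Elane and Retnlg had lower means in ILK-K5, at few reads, and Ly6g had no read there. Csf3r and Cxcr2 had higher means and were not called. In T cell, fibroblast, endothelial, B cell and mast cell lists 1 of 5, 1 of 5, 0 of 3, 0 of 1 and 0 of 1 tested markers were higher. Of 5 tested melanocyte markers 1, Mitf, was lower. In such bulk libraries, more cells of a type and more RNA per cell cannot be told apart.

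Separated by presence, 35 of the 72 genes had more than 3 reads in at least 1 library of both genotypes. A further 14 passed this limit in ILK-K5 libraries only, 7 in control libraries only, and 16 in neither. Of all 43274 genes, 47.3%, 3.76%, 8.52% and 40.4% fell into these classes. Because the classes are made from the levels, they are a description. When 2 libraries with more than 3 reads were asked for, the classes held 22, 23, 7 and 20 members, beside 40.2%, 3.68%, 3.78% and 52.3% of all genes. Clec4a1, Tlr8, Tlr7 and Nlrp3 were among the genes that moved to ILK-K5 only, since each rested on a single control library with 4 to 11 reads.

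The 14 genes seen in ILK-K5 only were Tlr1, Tlr6, Tlr9, Tlr11, Tlr12, Tlr13, Clec4a3, Clec4a4, Clec4d, Clec4e, Clec9a, Nlrc4, Nlrp4b and Nlrp5-ps. Only Tlr1, Tlr6 and Clec4a4 had no control read at all. The 7 genes seen in controls only were Clec18a, Nlrp2, Nlrp4c, Nlrp4d, Nlrp4e, Nlrp6 and Nlrp9b, and none of these had more than 17 reads in any library. Nlrp4c, a member of the oocyte-expressed Nlrp4 family, had 17, 7 and 2 reads in controls 1 to 3 and 1, 0 and 1 in ILK-K5. Nlrp6, an inflammasome receptor best known from the intestine, had 4, 10 and 4 reads in controls and 0, 1 and 2 in ILK-K5. Of the 50-base stretches in transcripts of Nlrp4e, Nlrp4c and Nlrp9b, 36.7%, 10.7% and 7.79% also occur in other genes, so that their few reads are uncertain. For Clec18a, Nlrp4d and Nlrp2 the share was 0.939%, 1.83% and 2.39%, and Nlrp6 shared none. The 16 genes with at most 3 reads in every library included Clec12b, Clec3b and Nlrp4g, with 0 reads in all 6 libraries.

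Levels between genes were compared as FPKM, which divides by transcript length. In control bulge SCs the highest mean FPKM belonged to Pycard (20.0 ± 4.31, SD, n = 3), the adaptor of inflammasomes. It was followed by Clec2d (14.1 ± 12.4), which encodes a ligand of an inhibitory receptor on natural killer cells, Clec11a (8.04), a secreted growth factor, Nlrp10 (5.86), an NLR of epidermal cells, and Tlr3 (5.74), the sensor of double-stranded RNA. The spread of Clec2d between control libraries, from 1.22 to 26.1, covered the levels of all the others. In ILK-K5 the first places went to Clec4a3 (31.4), Clec4a1 (26.9), Pycard (24.0), Clec7a (18.3) and Clec4n (18.2), of which only Pycard was above 1 FPKM in the control mean.

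**Figure D1:**
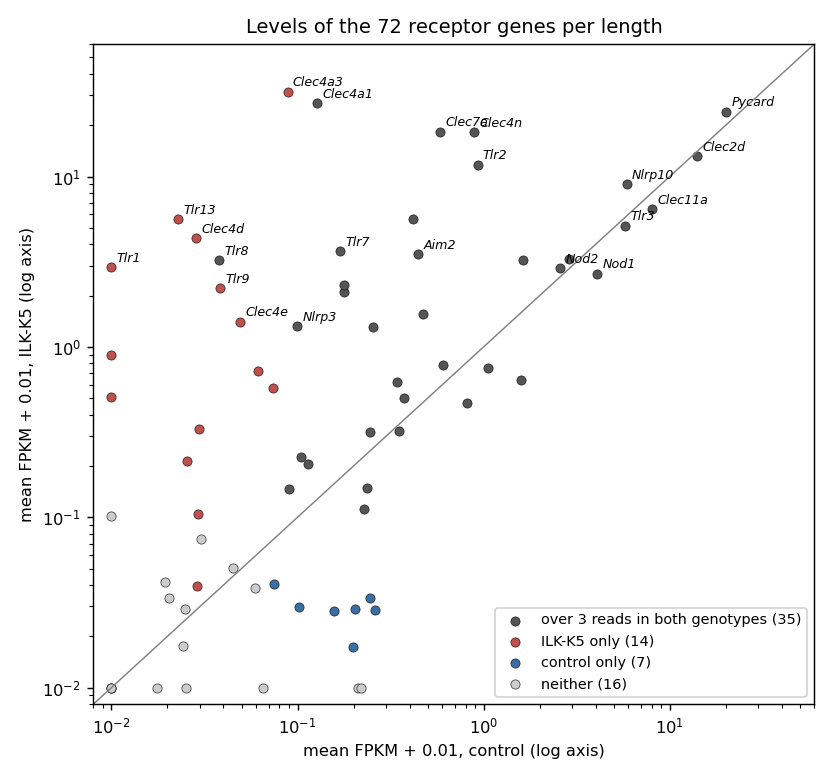
Mean FPKM of the 72 receptor genes in control (x axis) and ILK-K5 libraries (y axis), both on log axes after adding 0.01 and each over 3 libraries, coloured by presence class. The genes abundant in controls, such as Pycard, Clec2d, Tlr3 and Nod1, lie near the line of equal levels, and the genes far above it have control means under 1 FPKM.

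Of the 72 members, 36 reached a mean of 10 normalized counts over the 6 libraries and were tested with limma together with all 16368 genes above this limit. Of these 36 genes, 16 were higher in ILK-K5 at a Benjamini-Hochberg adjusted p of at most 0.05, none was lower and 20 were not called. Over all tested genes 2.93% were higher and 0.599% lower. At an unadjusted p under 0.05 there were 20 members, beside 12.3% of all tested genes. The libraries of the genotypes did not overlap for 21 of the 36 members, all higher in ILK-K5, where over all tested genes 10.9% were higher and 6.95% lower in this way. DESeq2 on the recovered reads called 17 members higher and none lower (4.6% and 1.51% of all genes), and edgeR called 14 and none (2.58% and 0.532%). The library names carry one number in library 1 and another in libraries 2 and 3 of both genotypes, without explanation, and with a term for it limma called 19 members higher and none lower (5.17% and 1.75% of all genes). Of the 36 members, 14 had a control mean under 10 and were tested only because of their ILK-K5 level, which by itself selects for higher genes. Among the other 22, 5 were higher (Aim2, Clec4a2, Clec4n, Clec7a and Tlr2), and none was lower, against 1.43% and 0.626% of all genes with a control mean of at least 10. Of these 5, Clec4n owed its control mean mainly to library 2 and was called by neither DESeq2 nor edgeR. The count changed when 1 library was left out. It was 8 without ILK-K5 library 2, 10 without ILK-K5 library 1 and 18 without control library 1. Of all 16368 tested genes, 479 were higher with every library, and 222, 268 and 516 in these fits, in the same order. Whichever library was left out, 8 genes were called (Clec4a1, Clec4a2, Clec4a3, Clec7a, Tlr1, Tlr2, Tlr8 and Tlr13). Aim2 and Clec4n were not among them.

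**Figure D2:**
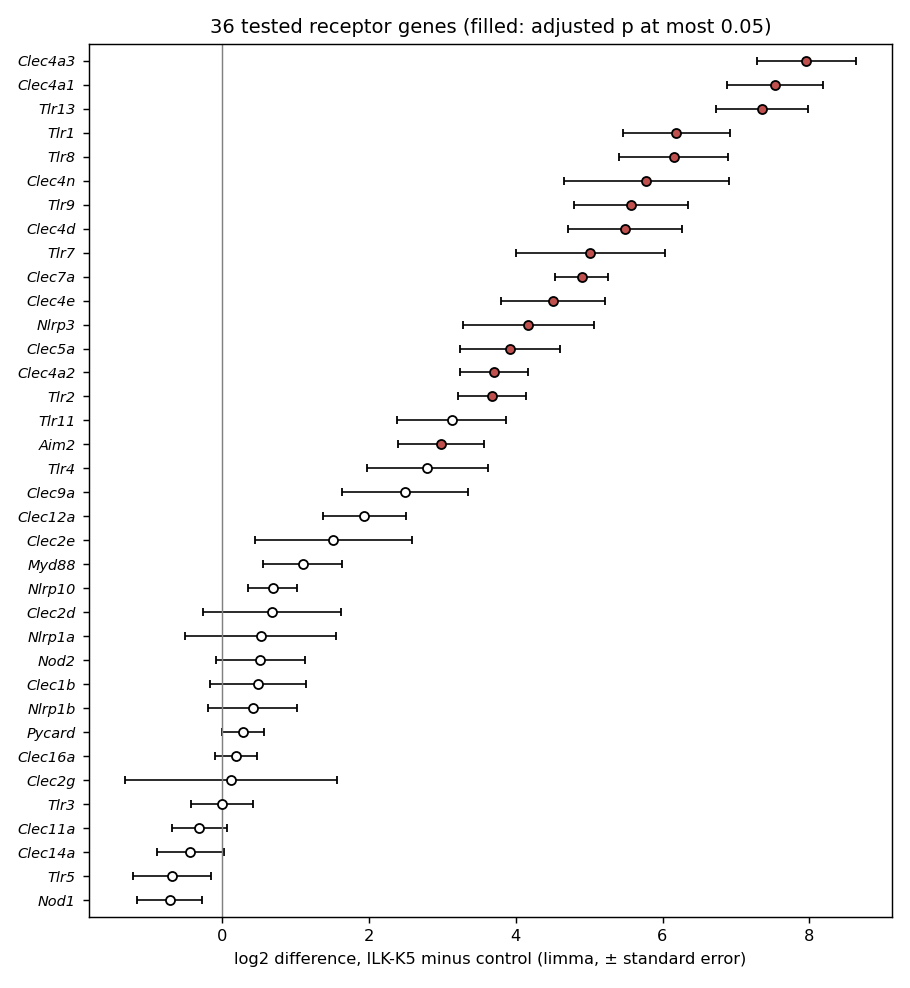
Difference between ILK-K5 and control in log2(normalized count + 1) for the 36 tested receptor genes, with the standard error from limma; filled points have an adjusted p of at most 0.05. The 16 called genes all lie right of 0, between 2.98 (Aim2) and 7.96 (Clec4a3), and for genes with few control reads the value depends on the 1 added.

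To show what lies before the start sites of such genes, 120 bases upstream are printed for 3 called genes that hold the letters GAGGAAG there, for 1 called gene that does not and for 1 gene that was not called. These letters, in either direction, form the core of the site known for PU.1, a transcription factor of myeloid cells. The sequences are from RefSeq (GRCm38.p6), 5′ to 3′ on the strand of the gene and ending at the base before the start, with matches in capitals.
Tlr1, chr5:64933559-64933678, minus strand: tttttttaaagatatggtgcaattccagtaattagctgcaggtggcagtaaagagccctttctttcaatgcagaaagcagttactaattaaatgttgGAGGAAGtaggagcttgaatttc
Tlr9, chr9:106222478-106222597, plus strand: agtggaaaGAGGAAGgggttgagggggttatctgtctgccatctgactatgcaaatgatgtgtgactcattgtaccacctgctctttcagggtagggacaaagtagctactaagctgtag
Clec5a, chr6:40585806-40585925, minus strand: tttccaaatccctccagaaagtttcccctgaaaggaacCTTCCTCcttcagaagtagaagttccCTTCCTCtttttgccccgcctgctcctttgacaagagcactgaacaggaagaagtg
Clec7a, chr6:129472780-129472899, minus strand: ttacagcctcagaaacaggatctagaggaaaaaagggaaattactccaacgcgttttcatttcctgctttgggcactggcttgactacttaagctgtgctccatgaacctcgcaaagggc
Nod1, chr6:54972613-54972732, minus strand: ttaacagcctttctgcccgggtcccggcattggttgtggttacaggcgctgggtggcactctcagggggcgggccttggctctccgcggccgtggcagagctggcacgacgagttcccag

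The match began 23 bases before the start in the printed window of Tlr1, 112 before it in Tlr9 and 82 and 56 before it in Clec5a. Another start window of Tlr1 (chr5:64932700-64932819) had no match. A gene with several windows was counted as holding the letters if any window did, as for Tlr1, Nlrp3 and Nlrp1b. Start windows were found for 56 of the 72 members. Within 250 bases upstream and on both strands, the letters occurred in 8 of the 14 called genes with a window (Aim2, Clec4a1, Clec4d, Clec5a, Nlrp3, Tlr1, Tlr9 and Tlr13) and in 6 of the 18 that were tested and not called (Clec12a, Clec16a, Nlrp1a, Nlrp1b, Pycard and Tlr11). Of 27025 genes with a window, 12.0% held them, as did 10.6% of the 32851 windows. A pair of GAAA separated by 2 bases, from the element that interferon-regulated factors bind, occurred in 0 of 14 and 3 of 18 of these members (Clec2d, Myd88 and Tlr11) and in 3.46% of genes. GGG followed after 2 bases by TTTCC, from the NF-κB site, occurred in 0 of 14, in 1 of 18 (Tlr3) and in 1.65% of genes. A match describes these letters only.

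The surface Toll-like receptors fell into several patterns. Tlr2, the receptor of bacterial lipopeptides on chromosome 3 (83836272 to 83841767, GRCm38), had 14.5, 41.1 and 25.4 normalized counts in controls and 493, 275 and 265 in ILK-K5. It was present in all controls and higher in every ILK-K5 library, with a log2 difference of 3.68 (SE 0.47, limma adjusted p = 0.00242). Its partners Tlr1 and Tlr6, neighbours on chromosome 5, had no read in any control library. Tlr1 stood at 105, 47.8 and 74.0 in ILK-K5, at least 73.6-fold higher than 3 reads over the 3 controls (adjusted p = 0.00183). Tlr6 stood at 12.5, 6.94 and 18.5 and was at least 12.5-fold higher, but did not reach the limit for testing; when all genes with any read were tested it was called (limma adjusted p = 0.0442). Of the 50-base stretches of Tlr1, 13.6% also occur in Tlr6, so that some of these reads could be exchanged between the pair.

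Tlr4, which senses lipopolysaccharide with Cd14 and Ly96, had 19.3, 1.52 and 18.9 in controls and 88.8, 60.2 and 61.4 in ILK-K5. All ILK-K5 libraries lay above the controls, but the log2 difference of 2.80 (SE 0.82) was not called by limma (adjusted p = 0.129); DESeq2 called it (adjusted p = 0.0172), as did limma with the term for the number in the library names (0.0457), and the adjusted p ranged from 0.0172 to 0.216 over the alternatives with all libraries or with replicates 2 and 3 only. Tlr5, the flagellin receptor, ran the other way in its means, with 56.0, 35.0 and 21.8 in controls and 20.5, 24.7 and 19.5 in ILK-K5. Its genotypes overlapped and the difference of -0.68 (SE 0.53) was not called (adjusted p = 0.759).

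Among the endosomal receptors, Tlr7, Tlr8, Tlr9 and Tlr13 were called higher in ILK-K5, and Tlr3 and Tlr11 were not called. The called genes had a control mean under 10 and were tested only because of their ILK-K5 level, which by itself selects for higher genes. Tlr3 had a control mean of 246. Tlr13, which in mice recognises bacterial ribosomal RNA, had 1 read in the 3 controls together and 268, 210 and 195 normalized counts in ILK-K5. The ratio of pooled reads per exposure was 678 (95% interval from counting error, Clopper-Pearson, 121 to 26835; limma adjusted p = 0.000368). At a mean of 5.62 FPKM it was the highest in ILK-K5 of the Toll-like receptors with at most 3 control reads. Tlr9, the receptor of unmethylated CpG DNA, had 2.89, 0 and 0 in controls and 66.0, 91.8 and 66.2 in ILK-K5, a ratio of 78.4 (interval 26.5 to 383; limma adjusted p = 0.00415). The call was lost without ILK-K5 library 2 (adjusted p = 0.0514).

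Tlr7 and Tlr8, adjacent on the X chromosome and both sensors of single-stranded RNA, differed in how even the libraries were. Tlr8 had 0, 0 and 2.90 in controls and 138, 100 and 98.4 in ILK-K5 (log2 difference 6.15, SE 0.75, limma adjusted p = 0.00206). Tlr7 had 0, 16.7 and 2.18 in controls and 245, 130 and 58.4 in ILK-K5 (5.02, SE 1.02, limma adjusted p = 0.0290). Its ILK-K5 libraries thus spanned over 4-fold where those of Tlr8 lay within 1.40-fold of each other. The call of Tlr7 was lost without control library 3 or any 1 of the ILK-K5 libraries (adjusted p from 0.0534 to 0.125), and edgeR gave an adjusted p of 0.0572 (range over alternatives 8.69e-06 to 0.118).

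Tlr11 and Tlr12, receptors of protozoan profilin in mice, were low. Tlr11 had 1.93, 1.52 and 1.45 in controls and 31.9, 20.1 and 16.6 in ILK-K5, a log2 difference of 3.13 (SE 0.74) that limma did not call (adjusted p = 0.0576) and edgeR did (adjusted p = 0.0318; range over alternatives 0.00748 to 0.101). Without control library 1, or with the term for the number in the library names, limma called it as well (adjusted p = 0.0422 and 0.0251). Tlr12, with 2 control reads, stood at 4.55, 8.48 and 5.84 in ILK-K5 and was not tested (ratio 10.1, interval 2.46 to 88.6).

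Tlr3, the Toll-like receptor with the highest control FPKM, was not called. It had 157, 427 and 154 in controls and 270, 197 and 195 in ILK-K5. The ILK-K5 values lay inside the control range, with a log2 difference of 0.0013 (SE 0.43, limma adjusted p = 0.9996) whose sign changed with the settings. Of its 50-base stretches 5.30% also occur in Gm45542, a gene on the other strand. Summed over the 6 called receptors (Tlr1, Tlr2, Tlr7, Tlr8, Tlr9 and Tlr13), the level was 17.4, 59.3 and 30.5 in controls and 1314, 855 and 757 in ILK-K5. These 6 were chosen by their call, and all but Tlr2 had a control mean under 10, so that the sums are a description.

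**Figure D3:**
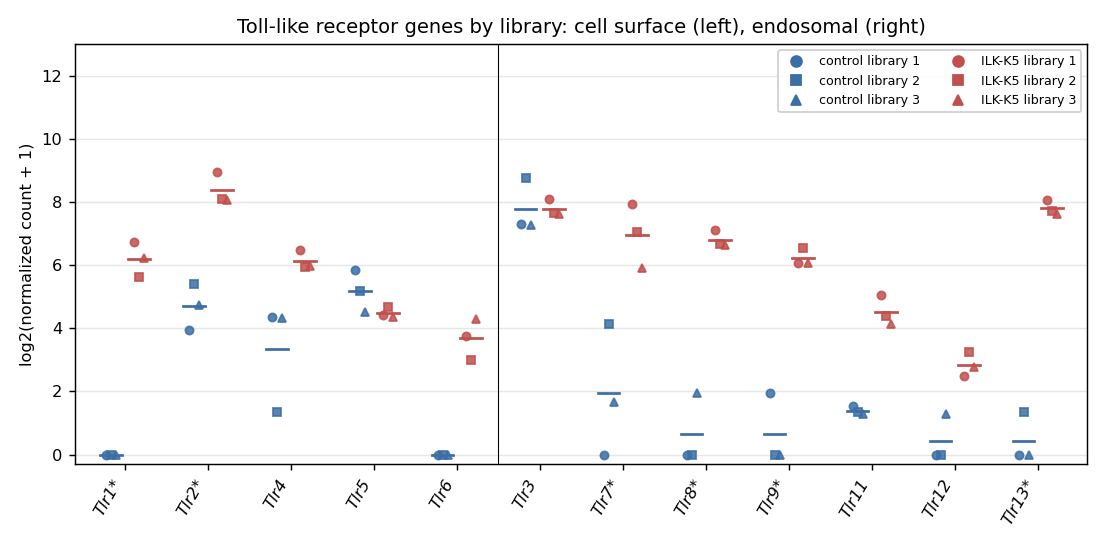
log2(normalized count + 1) of the 12 Toll-like receptor genes in each of 3 control (blue) and 3 ILK-K5 libraries (red), with horizontal lines at the means; an asterisk marks the genes called by limma. Tlr3 and Tlr5 overlap between genotypes, and in the other 10 genes every red point lies above every blue one. Over all tested genes 10.9% were higher in this way. Tlr6 and Tlr12 were not tested. Tlr1, Tlr7, Tlr8, Tlr9, Tlr11 and Tlr13 had a control mean under 10 and were tested only because of their ILK-K5 level.

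The adaptor Myd88 had 18.3, 38.0 and 66.0 in controls and 62.6, 111.1 and 69.2 in ILK-K5. Control library 3 lay above ILK-K5 library 1, and the log2 difference of 1.10 (SE 0.54) was not called (limma adjusted p = 0.484). Of its 50-base stretches 7.42% are shared with Acaa1a on the opposite strand. Around it, a list of 30 co-receptors, transport proteins and adaptors held 28 tested genes, of which 5 were higher and none lower, with a median log2 difference of 0.38 against 0.0054 over all genes. Over all tested genes 2.93% were higher and 0.599% lower. The higher genes of the list were Cd14, Cd180, Ly86, Cd36 and Unc93b1. All 5 had a control mean under 10 and were tested only because of their ILK-K5 level, which by itself selects for higher genes. Cd14, the lipopolysaccharide co-receptor, had 0, 3.04 and 2.18 in controls and 355, 387 and 305 in ILK-K5 (7.22, SE 0.62, limma adjusted p = 0.000368). Unc93b1, which carries the nucleic acid receptors to endosomes, had 0, 1.52 and 7.26 in controls and 71.7, 121 and 74.0 in ILK-K5 (4.99, SE 0.83, limma adjusted p = 0.0109). Ly96, the other lipopolysaccharide co-receptor, overlapped, at 311 ± 170 in control and 304 ± 22.1 in ILK-K5 (SD, n = 3). The adaptors and kinases downstream were read in both genotypes without a call, such as Tirap at 158 ± 34.3 and 170 ± 2.94, Irak1 at 424 ± 60.6 and 536 ± 30.8 and Traf6 at 494 ± 123 and 547 ± 77.3.

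Of the C-type lectin genes on chromosome 6, all but Clec2l, Clec4f and Clec5a lie in a pair of clusters. The first cluster runs over 368 kb, from 122921848 to 123289870, and holds 9 members, in order Clec4a1, Clec4a3, Clec4a4, Clec4b1, Clec4a2, Clec4b2, Clec4n, Clec4d and Clec4e. They encode lectins of dendritic cells and macrophages, some with an inhibitory motif and some that pair with Fcer1g. All 6 of its tested genes were higher in ILK-K5, where over all tested genes 2.93% were higher. The second cluster, from 128652416 to 129472779, holds 13 members from Clec2j to Clec7a, and 1 of its 7 tested genes was higher. Of the 6 genes in the first cluster, 4 had a control mean under 10 and were tested only because of their ILK-K5 level. With a control mean of at least 10 there were 2 genes in the first cluster, both higher (Clec4a2 and Clec4n), and 5 in the second, of which 1 was higher (Clec7a). Of all genes with such a control mean 1.43% were higher. The control mean of Clec4n came mainly from library 2. The difference between the clusters was not tested.

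In the first cluster, Clec4a1 had 0.965, 0 and 4.35 in controls and 406, 471 and 347 in ILK-K5 (log2 difference 7.53, SE 0.66, limma adjusted p = 0.000368). Clec4a3 had 2 control reads, both in library 2, and 544, 368 and 308 in ILK-K5, a ratio of 610 (interval 168 to 5041; limma adjusted p = 0.000368). Clec4a2, which encodes the inhibitory receptor DCIR, differed from both by its control level, at 14.5, 12.2 and 7.26. It reached 138, 203 and 130 in ILK-K5 (3.70, SE 0.46, limma adjusted p = 0.00232). Clec4a4 and Clec4b1 were low, at 2.28, 10.03 and 7.79 and at 17.1, 18.5 and 12.7 in ILK-K5, with 0 and 4 control reads, and were not tested (at least 7.36-fold higher, and a ratio of 12.5 with an interval of 4.59 to 47.5). Of their 50-base stretches 15.7% and 8.68% also occur in Clec4a2. Clec4b2, between called neighbours, had at most 1 read in every library.

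At the other end of this cluster are Clec4n, Clec4d and Clec4e, which encode Dectin-2, MCL and Mincle, receptors of fungal mannans and of mycobacterial glycolipid. Clec4n had 0, 35.0 and 1.45 in controls and 181, 341 and 235 in ILK-K5 (5.78, SE 1.13, limma adjusted p = 0.0238). Control library 2, with 23 of the 25 control reads, stood apart, and neither edgeR (adjusted p = 0.0784) nor DESeq2 (0.140) called the gene, with a range of 0.00398 to 0.140 over the alternatives. The limma call was also lost without control library 3 or any 1 of the ILK-K5 libraries (adjusted p from 0.0555 to 0.105). Clec4d had 1 control read and 84.2, 52.4 and 33.1 in ILK-K5, a ratio of 169 (interval 29.9 to 6708; limma adjusted p = 0.00432, and 0.0541 without ILK-K5 library 2). Clec4e had 1.93, 3.04 and 0.726 in controls and 112, 52.4 and 39.0 in ILK-K5 (4.51, SE 0.71, limma adjusted p = 0.00825). Without ILK-K5 library 1 or 2 its adjusted p was 0.0592 and 0.0609. ILK-K5 library 1 was highest for Clec4d, Clec4e and Clec4a3, and library 2 for Clec4n, Clec4a1 and Clec4a2.

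In the second cluster the called gene was Clec7a, which encodes Dectin-1, the receptor of β-glucan. It had 12.5, 10.6 and 15.2 in controls and 383, 450 and 394 in ILK-K5, with a log2 difference of 4.90 (SE 0.36, limma adjusted p = 0.000259). Its libraries were even within each genotype, and it had the smallest standard error of the 16 called genes. Clec12a, an inhibitory receptor for uric acid crystals, had 41.5, 18.2 and 9.43 in controls and 76.3, 80.2 and 76.0 in ILK-K5. The libraries did not overlap, but the difference of 1.94 (SE 0.57) was not called (limma adjusted p = 0.129). It was called without control library 1 (limma adjusted p = 0.0311) and with the term for the number in the library names (0.0379). Clec9a, which binds actin filaments of dead cells and marks cross-presenting dendritic cells, stood at 31.9, 7.71 and 14.6 in ILK-K5 with 6 control reads (2.49, SE 0.86, limma adjusted p = 0.220).

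The Clec2 genes of the same cluster encode ligands of natural killer cell receptors, and none of the 3 tested was called. Clec2d had 14.5, 176 and 308 in controls and 107, 188 and 171 in ILK-K5. Clec2g had 0, 68.4 and 60.2 in controls and 11.4, 20.8 and 19.5 in ILK-K5. In both genes control library 1 was far below the other controls, so that the sign of the difference, 0.68 (SE 0.94, limma adjusted p = 0.888) and 0.13 (SE 1.45, 0.989), turned without it, to -0.62 and -1.88. Clec2e was the third, with 15.4, 0 and 6.53 in controls and 18.2, 10.03 and 12.7 in ILK-K5 (1.52, SE 1.07, 0.717).

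**Figure D4:**
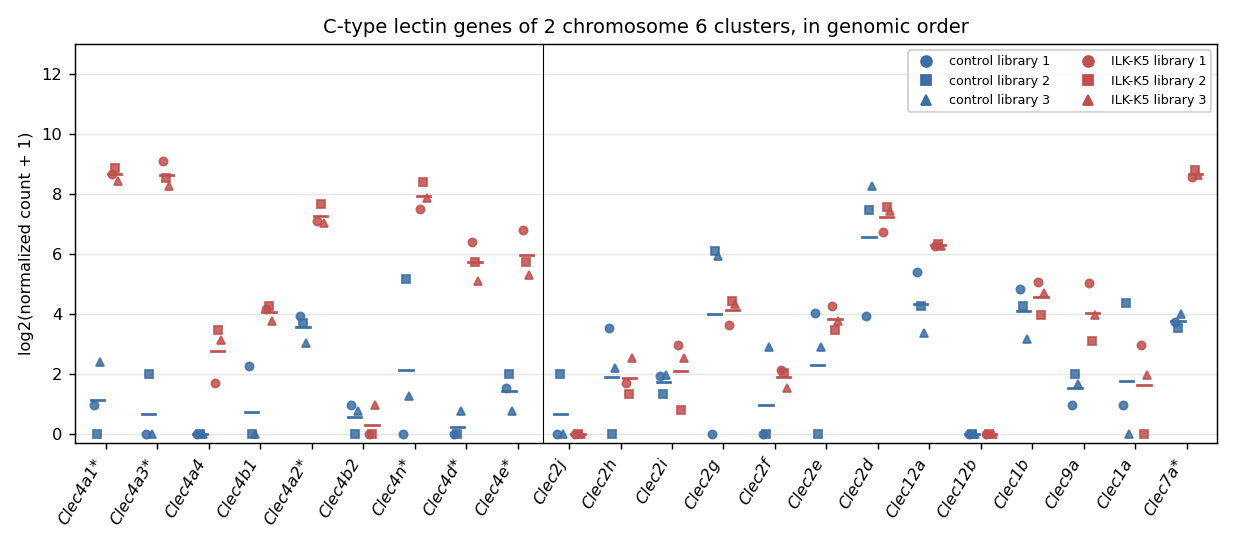
log2(normalized count + 1) of the 9 C-type lectin genes of the first and the 13 of the second chromosome 6 cluster, left and right of the vertical line and in genomic order, for each of 3 control (blue) and 3 ILK-K5 libraries (red) with lines at the means; an asterisk marks genes called by limma. The marked genes are 6 of the first cluster and Clec7a at the end of the second.

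Outside these clusters, Clec5a, a Tyrobp-coupled receptor of myeloid cells, also on chromosome 6 (40574894 to 40585821), was higher. It had 13.5, 3.04 and 2.18 in controls and 84.2, 84.1 and 88.6 in ILK-K5 (3.92, SE 0.67, limma adjusted p = 0.0128). The call was lost without control library 2 or any 1 of the ILK-K5 libraries (adjusted p from 0.0559 to 0.0809). Clec10a, the galactose-type lectin of macrophages, stayed at 7.97 or less in every library although its genotypes did not overlap. Clec11a, Clec14a and Clec16a, whose products are a growth factor, an endothelial glycoprotein and a regulator of autophagy, were read in both genotypes without a call (153 ± 48.5 and 122 ± 31.6, 46.5 ± 16.2 and 32.9 ± 1.56, and 235 ± 47.5 and 265 ± 31.1, control and ILK-K5, SD, n = 3).

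A list of 14 signalling genes of C-type lectin receptors held 13 tested genes, 5 of them higher and none lower (median log2 difference 1.04). These were the receptor chains and proteins next to them, Fcer1g, Tyrobp, Vav1, Lyn and Inpp5d. Of these, Vav1 and Inpp5d had a control mean under 10 and were tested only because of their ILK-K5 level. Over all tested genes 2.93% were higher and 0.599% lower. Fcer1g had 0, 25.8 and 10.9 in controls and 1103, 1446 and 948 in ILK-K5 (7.39, SE 1.004, limma adjusted p = 0.00361). Tyrobp had 3.86, 12.2 and 15.2 in controls and 600, 702 and 367 in ILK-K5 (5.73, SE 0.53, limma adjusted p = 0.000516). Syk, the kinase that both chains recruit, had means of 48.2 ± 14.1 and 142 ± 16.5 and was not called (1.58, SE 0.38, limma adjusted p = 0.0624). The more widely used Prkcd (605 ± 193 and 636 ± 75.6) and Ptpn11 (796 ± 19.2 and 798 ± 23.0) differed little between the means.

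Among the cytosolic receptors, Nlrp3 and Aim2 were called and the receptors abundant in controls were not. Nlrp3, which senses membrane damage and ion flux, had 0, 9.12 and 1.45 in controls and 52.4, 57.1 and 45.8 in ILK-K5 (4.17, SE 0.89, limma adjusted p = 0.0356). Aim2, the sensor of cytosolic DNA, had 20.3, 6.08 and 18.1 in controls and 186, 81.0 and 91.6 in ILK-K5 (2.98, SE 0.59, limma adjusted p = 0.0245). The controls thus held Aim2 in every library and Nlrp3 mainly in library 2. Both calls were lost without any 1 of the ILK-K5 libraries, that of Nlrp3 also without control library 3 and that of Aim2 also without control library 2 (adjusted p from 0.0639 to 0.183 and from 0.0746 to 0.117). For Nlrp3 edgeR gave an adjusted p of 0.0714 (range over alternatives 0.000259 to 0.0967). Nlrc4, the partner of the flagellin sensors Naip, had 3 control reads, all in library 3, and 9.11, 12.3 and 14.6 in ILK-K5 (ratio 12.5, interval 3.97 to 63.1), and was not tested.

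Pycard, the shared inflammasome adaptor, was at 206, 304 and 313 in controls and 304, 361 and 322 in ILK-K5. The genotypes overlapped and the difference of 0.28 (SE 0.29) was not called (limma adjusted p = 0.824). Of its 50-base stretches 11.52% also occur in Gm45205, an opposite-strand gene. Nlrp10 had 153, 333 and 281 in controls and 402, 400 and 378 in ILK-K5, without overlap, and a difference of 0.69 (SE 0.34, limma adjusted p = 0.479). Nlrp1a and Nlrp1b, sensors of bacterial protease activity, overlapped between genotypes (0.53, SE 1.03, and 0.42, SE 0.60).

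Nod1 and Nod2, which sense fragments of peptidoglycan, were both well read in control bulge SCs. Nod1 had 209, 182 and 132 in controls and 188, 96.4 and 62.3 in ILK-K5 (-0.71, SE 0.44, limma adjusted p = 0.648). Nod2 had 253, 41.1 and 83.4 in controls and 184, 118 and 121 in ILK-K5 (0.53, SE 0.60, limma adjusted p = 0.854). For Nod2 the controls spanned the whole range of the ILK-K5 values, with library 1 highest. With 3 libraries per genotype, a p that misses the threshold does not show that these levels are alike.

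**Figure D5:**
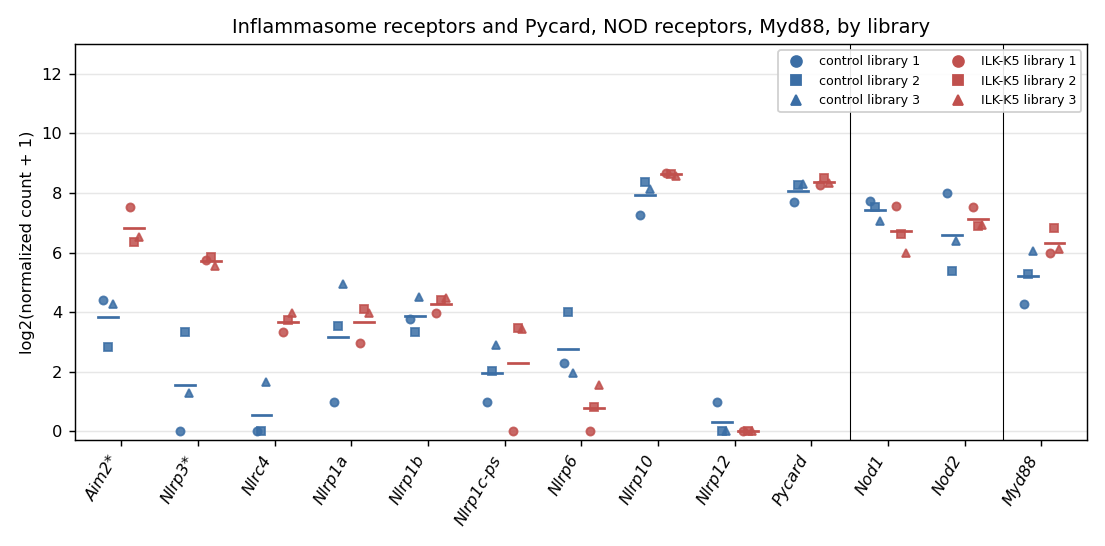
log2(normalized count + 1) of inflammasome receptors and Pycard (left), the NOD receptors (middle) and Myd88 (right) in each of 3 control (blue) and 3 ILK-K5 libraries (red), with lines at the means; asterisks mark genes called by limma. Aim2 and Nlrp3 are marked, Pycard and Nlrp10 are high in all 6 libraries, and Nlrp6 lies lower in ILK-K5 at few reads.

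A list of 21 inflammasome and NOD signalling genes held 20 tested genes, 6 higher and none lower (median log2 difference 0.97). The higher genes were Il1b, Ciita, Mefv, Naip2, Naip6 and Gsdmd. Of these, Ciita, Mefv, Naip2 and Naip6 had a control mean under 10 and were tested only because of their ILK-K5 level. Over all tested genes 2.93% were higher and 0.599% lower. Il1b, the cytokine that inflammasomes mature, had 4.82, 25.8 and 30.5 in controls and 1563, 1318 and 1195 in ILK-K5 (6.31, SE 0.59, limma adjusted p = 0.000578). Il18, the other such cytokine, was at 54.0 ± 12.4 in control and 47.9 ± 27.8 in ILK-K5 and was not called. Gsdmd, the pore protein that caspase-1 cleaves, had 27.0, 6.08 and 12.3 in controls and 96.8, 94.9 and 66.2 in ILK-K5 (2.63, SE 0.59, limma adjusted p = 0.0441). Casp1 itself was at 199 ± 113 and 388 ± 97.7 and was not called. Of 8 tested cytosolic sensors of nucleic acid, 2 were higher, Ifi204 (5.13, SE 0.51, limma adjusted p = 0.000772) and Tmem173, which encodes STING (3.85, SE 0.71, limma adjusted p = 0.0182), and only 1 of them without any 1 of the ILK-K5 libraries. Both had a control mean under 10 and were tested only because of their ILK-K5 level.

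The 16 called genes summed to 81.0, 141 and 82.0 in controls and 3484, 3015 and 2467 in ILK-K5, beside summed macrophage markers of 809, 1292 and 901 and of 15290, 22171 and 16940. The 16 genes were chosen by their call, and 11 of them had a control mean under 10. Their higher sum in ILK-K5 thus follows from the choice and is a description. The macrophage sum was also higher in every ILK-K5 library, but among these libraries the first was highest for the receptors and lowest for the macrophage markers. The most abundant markers, Ctss (3439, 6658 and 4700) and Lyz2 (1869, 4998 and 3462), were lowest in library 1, as were Cd68, C1qc, Fcgr1 and Mertk. Csf1r (2747, 2390 and 1793), Mrc1, Itgam, Adgre1, C1qa and Cd163 were highest in library 1, and C1qb in library 2. The sums of several other marker lists did not overlap between genotypes either. Fibroblast markers summed to 703, 756 and 780 in controls and 2513, 1903 and 1545 in ILK-K5, in which library 1 was highest and library 3 lowest, as for the receptors. T cell markers summed to 130 to 197 and 281 to 340. Among them Cd4, the called marker, had 15.4, 9.12 and 7.98 in controls and 122, 118 and 96.4 in ILK-K5. Cd3e, Cd3g, Cd247, Lck and Trac also had higher means in ILK-K5, and Cd3d and Cd8a had lower ones. Mast cell markers summed to 0.965 to 13.7 and 20.1 to 22.4, where the ILK-K5 sum was Kit alone. Cpa3, Mcpt4, Tpsb2, Cma1 and Ms4a2 had 0 reads in every ILK-K5 library, and Ms4a2 had 1, 7 and 3 reads in controls. The melanocyte sum was lower, at 680 to 1308 and 269 to 478, which came from Mitf (867 ± 270 and 235 ± 37.2, mean ± SD). Of the other listed melanocyte markers, Tyr had a lower mean in ILK-K5, and Dct, Tyrp1, Pmel and Mlana had higher ones. The median log2 difference of the tested melanocyte markers was 0.20. The 20 tested genes that were not called summed to 1690, 2095 and 1890 in controls and 2292, 2110 and 2056 in ILK-K5. The part of these markers, and of the neutrophil and dendritic cell markers given above, in the receptor differences was not tested. Within the 3 ILK-K5 libraries, the level of a receptor per 1000 counts of macrophage markers varied by gene. That of Tlr9 was 4.32, 4.14 and 3.91, and those of Clec4a2 and Clec7a differed at most 1.20-fold and 1.23-fold between libraries. For Tlr7 the values were 16.0, 5.88 and 3.45, a range of 4.64-fold. Of the other called genes, Aim2, Clec4e and Tlr1 also spanned over 3-fold, each with library 1 highest. The marker counts used as the base are the same sum, weighted to Ctss and Lyz2. These are descriptions over 3 libraries, without a test.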

How the data were processed

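RNA of sorted bulge SCs from 3 control and 3 ILK-K5 samples was amplified as cDNA, made into unstranded transposon-based libraries and sequenced as read pairs by the authors. Per the labels, TopHat2 2.0.14 with Bowtie2 2.2.4 and DESeq2 1.6.3 were among the processing tools and GRCm38 the genome; the program that counted reads per gene is not given in the sources used here. The authors deposited normalized counts (a signal made by dividing reads per gene by DESeq2 size factors). All values (100%) were whole multiples of the smallest value of their library (within 0.01 reads), so reads were recovered. The FPKM deposited by the authors equal these values times a constant per gene. A deposited table of the authors' comparison, with the mean signal, log2 fold changes, scores (standard error and Wald statistic) and p-values by the authors, was not used.

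Symbols and coordinates came from GENCODE M21 (97.3% of 43274 gene IDs matched), and promoter windows from RefSeq. Genotypes were compared with limma 3.58.1 (lmFit, eBayes with a trend; R 4.3.3) on log2(normalized count + 1) for 16368 genes averaging 10 or more over the 6 libraries, with two-sided p-values and Benjamini-Hochberg adjustment over all of them. On this scale the change of low genes is understated. With 3 against 3 samples an exact permutation test of a single gene cannot give p under 0.1. A gene with 0 control reads was compared with a floor of 3 reads over the group; with 1 to 4 control reads, where a ratio is printed, the ratio of pooled reads per pooled size factor is given with its exact 95% interval, which covers counting error only. edgeR 4.0.16 and DESeq2 1.42.0 on recovered reads, other pseudocounts, filters and scalings, left-out libraries and a replicate block were alternatives. limma was checked on simulated data. The members, gene lists and tests were chosen with earlier results of these data known. Named members are every Tlr gene, the adaptors and cytosolic sensors given by symbol, called genes, the 5 highest in control FPKM, genes seen in ILK-K5 only and genes present in controls whose libraries did not overlap; the remaining members named were chosen after their values were seen. Tables and plots were made in Python 3.11.15 with pandas 2.3.3, scipy 1.17.1 and matplotlib 3.10.9.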

Additional observations from a re-analysis of the deposited data

How the results depend on the processing

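Under every alternative no receptor gene was called lower. The number called higher, 16, was 10 when an average of 50 normalized counts was asked for, because 6 called genes fell below that limit, 14 with edgeR, 17 with DESeq2 and 8 to 18 when 1 library was left out. With DESeq2, 751 of all genes were higher and 247 lower, and with 1 library left out 222 to 559 and 32 to 98. Of the inflammasome and NOD list 3 genes were called under this limit. Of the nucleic acid sensors 1 to 2 were called with a library left out. The presence classes changed with their limit. With more than 3 reads in 2 libraries 22 genes were present in both genotypes and 23 in ILK-K5 only, and with more than 10 reads in 1 library 25 were in neither. The sign of some differences that were not called turned. Clec2d was -0.11 with edgeR, -0.098 with DESeq2, -0.38 with replicates 2 and 3 only and -0.62 to 1.54 with a library left out. Clec2g was -0.40 with a pseudocount of 5, -0.24 with FPKM, -1.30 with edgeR, -1.31 with DESeq2, -1.62 with replicates 2 and 3 only and -1.88 to 1.18 with a library left out. Nlrp1a was -0.17, -0.15 and -0.21 with edgeR, DESeq2 and replicates 2 and 3 only, and -0.56 to 1.42 with a library left out. Nod2 ranged from -0.074 to 1.22 with a library left out. Tlr3 was -0.0010 with a pseudocount of 5, -0.00062 with FPKM, -0.15 with edgeR, -0.15 with DESeq2, -0.39 with replicates 2 and 3 only and -0.25 to 0.49 with a library left out. The cause of these changes was not tested. The replicate numbers were not shown to pair the samples. The study's controls were littermates, but no source ties libraries to litters or explains the number in the library names, one in library 1 and another in libraries 2 and 3 of both genotypes. The deviations of same-numbered libraries correlated at 0.53, 0.020 and 0.31, and control 2 correlated best with ILK-K5 3 (0.074). With a replicate block, 19 receptor genes (adding Clec12a, Tlr4 and Tlr11), 848 higher and 269 lower genes were called, and with a term for the number in the library names, 19, 846 and 286. With every gene that had any read, Tlr6 was added to the calls. At this depth, genes with fewer than 3 reads per library cannot be placed.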
